A study of Homo sapiens with 26 samples.

Results

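The regulators of fetal globin silencing described here are 10 genes chosen by name for a known part in the silencing of the fetal gamma-globin genes HBG1 and HBG2, as repressors or as factors that act on the repressors in either direction: BCL11A, ZBTB7A, MYB, SOX6, LIN28B, IGF2BP1, IGF2BP3, NFIA, NFIX and HIC2, of 57773 genes in the count table. They are set beside the summed RNA of HBG1 and HBG2. RNA sequencing measured them in TF-1, an established human erythroleukemia line that grows on the cytokine GM-CSF. The clones F4 and A12 carry a knockout of TET2 (labelled TET2 -/-, KO), an enzyme that oxidises methylated cytosine, and the clones A7 and C4 are wild-type for it (WT). Each genotype is therefore represented by 2 clones of 1 line, and a difference between genotypes cannot be told apart from a difference between these clones.

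One harvest preceded treatment, and others followed at 72 h and 264 h, counted from the first of 3 daily additions of 200 nM 5-azacytidine (Aza) or DMSO. Aza is a cytidine analogue that depletes the DNA methyltransferases. The KO groups held 2 Aza and 3 DMSO libraries at 72 h, 2 Aza and 4 DMSO libraries at 264 h, and 2 libraries before treatment. Another 2 KO libraries of a second batch carry labels of both pre-treatment and DMSO and formed a group of their own. Each of the 5 WT groups held 2 libraries. One KO library, F4 in DMSO at 72 h, is labelled as failing quality control and was left out, which left 25 of 26 libraries and puts F4 treated with Aza at 72 h against an F4 library of the second batch. The 25 libraries held 24992192 to 40187322 counted reads, and 3 counts, the floor used here, came to 0.0729 to 0.120 CPM, the unit of level used throughout (counts scaled to library size, with TMM factors).

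The identity of the line was checked first. TFRC, CD34, GATA2, GATA1 and CSF2RB were detected in every library, and 7 of 8 markers fixed for TF-1 averaged over 1 CPM. The eighth, CSF2RA, a chain of the GM-CSF receptor, was listed at 0 in every library. What lies behind this 0 was not tested, and it does not show that the transcript is absent. The summed level of 8 lymphoid markers stayed between 2.41 and 4.65 CPM, with MS4A1 at 0. TET2 RNA was detected in every library of both genotypes, at 24.9 to 46.4 CPM in KO libraries and 22.5 to 29.96 CPM in WT libraries, so its level does not check the knockout. The pre-treatment WT libraries went against their clone labels: deviations from the group mean, over 3000 variable genes, correlated between -0.523 and -0.479 with those of the later libraries of the same clone label, against 0.451 to 0.517 among the later WT libraries. Where exchanging these labels or leaving these libraries out changed a call or a sign of fetal globin RNA, or a count of regulators called by over 1.5 times, that is said beside the result or in the closing section.

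Human red cells use a fetal beta-like globin before birth and an adult one after it, and the change is held in place by repressors at the HBG1 and HBG2 promoters. BCL11A and ZBTB7A bind those promoters and recruit the NuRD corepressor. SOX6, MYB, NFIA and NFIX act with or above BCL11A, and HIC2 is a repressor of BCL11A transcription in fetal cells. LIN28B and the IGF2BP family bind RNA in fetal cells: LIN28B blocks the making of let-7 microRNAs, and both LIN28B and IGF2BP1 lower BCL11A protein output.

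The let-7 sequences are shown because LIN28B acts on them and because RNA of genes that host them changed with Aza. RefSeq lists 9 mature let-7 and miR-98 names from 12 loci (GRCh38.p14), and all share 1 seed, bases 2 to 8, in capitals.
hsa-let-7a-5p (one of its loci, chr22:46112752-46112773, + strand, within MIRLET7BHG): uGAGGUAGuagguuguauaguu
hsa-let-7b-5p (chr22:46113691-46113712, + strand, within MIRLET7BHG): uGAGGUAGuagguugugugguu
hsa-let-7c-5p (chr21:16539838-16539859, + strand, within MIR99AHG): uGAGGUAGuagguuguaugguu

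The complement of that seed, CTACCTC, was searched on the transcript strand in the longest annotated 3′ UTR of each gene (GENCODE release 29, GRCh38). It occurred in 9.71% of 19132 genes. LIN28B, IGF2BP1 and HIC2 each held 4 matches. Among genes with a 3′ UTR within 20% of the same length, as many were found in 0.204% for LIN28B, 0.593% for IGF2BP1 and 0.215% for HIC2. BCL11A, IGF2BP3 and NFIA each held 1 match, which 27.4%, 12.4% and 34.7% of genes of like length had too, and no match was found in ZBTB7A, MYB, SOX6 or NFIX. A match describes the letters only. The first match of each of 4 members, with the matched letters in capitals, shows the likeness to the microRNAs above.
LIN28B (chr6:105078815-105078841, + strand): cggttgcaaagtCTACCTCatgcaagt
IGF2BP1 (chr17:49051064-49051090, + strand): gtgcgaagtaaaCTACCTCaaggtatg
IGF2BP3 (chr7:23311788-23311814, - strand): atttttactcaaCTACCTCaggtattc
HIC2 (chr22:21446942-21446968, + strand): gtcccagcccgtCTACCTCcccatccc

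Levels per kilobase of exon differed widely among the regulators. MYB, a transcription factor of progenitor growth, was highest, with a median over 25 libraries of 56.2 CPM per kilobase. NFIX had a median of 8.89, NFIA of 6.57, ZBTB7A of 6.47, IGF2BP3 of 4.12 and HIC2 of 3.56 CPM per kilobase. NFIA at 4.57 to 9.34 and ZBTB7A at 4.496 to 7.79 CPM per kilobase overlapped almost wholly, as did IGF2BP3 at 2.91 to 5.52 and HIC2 at 2.86 to 4.28. BCL11A, a zinc-finger repressor, stood far below them at a median of 0.737 and a range of 0.390 to 1.21 CPM per kilobase. SOX6 was near the limit of detection in all clones, with 5 to 22 counts per library and a median of 0.020 CPM per kilobase. LIN28B and IGF2BP1 depended on the clone.

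**Figure D1:**
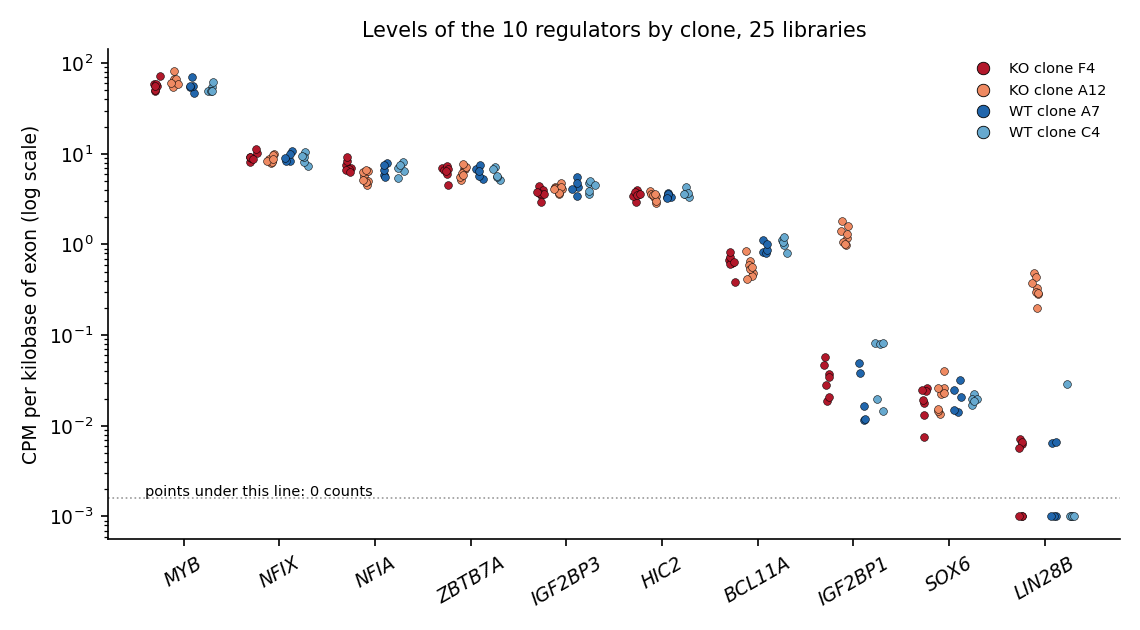
Level of each of the 10 regulators in CPM per kilobase of exon (log axis) in 25 libraries, by KO clones F4 and A12 and WT clones A7 and C4; each point is a library. IGF2BP1 and LIN28B are high in clone A12 alone, and BCL11A has lower medians in F4 and A12 than in A7 and C4.

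At 264 h HBG1 plus HBG2 stood at 157 CPM in F4 and 148 CPM in A12 after Aza, against 35.9 and 28.6 CPM in F4 and 12.9 and 17.6 CPM in A12 in DMSO. In WT clones at 264 h it stood at 443 CPM in A7 and 704 CPM in C4 after Aza, against 81.0 CPM in A7 and 187 CPM in C4 in DMSO. The Aza and DMSO libraries did not overlap in either genotype. How many of all genes separate in this way was not counted, so this describes the libraries only. Within clones of the first batch, Aza over DMSO came to 4.37-fold in F4, 11.5-fold in A12, 5.46-fold in A7 and 3.76-fold in C4. The log2 difference was 2.92 ± 0.67 in KO (SE) and 2.16 ± 0.69 in WT. Neither passed in edgeR's quasi-likelihood test with Benjamini-Hochberg adjustment over all genes, called under 0.05 (adjusted p = 0.277 in KO and 0.339 in WT). With the pre-treatment WT labels exchanged the adjusted p was 0.00496 in KO and 0.0102 in WT, and without those libraries 0.00807 and 0.0133, while the differences stayed at 2.91 in KO and 2.22 in WT under both. Leaving out either WT clone, A7 or C4, gave an adjusted p of 0.0192 in KO. HBG1 and HBG2 are near-identical, so reads could be split between them or dropped in counting, and their sum is given. In the annotation used (hg19), HBG1 spans chr11:5269313-5271122 and HBG2 chr11:5274420-5667019, both on the - strand. The HBG2 model overlaps that of HBE1 (chr11:5289582-5526847, - strand).

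At 72 h the difference was smaller. HBG1 plus HBG2 was at 90.4 CPM in F4 and 59.0 CPM in A12 after Aza, against 57.3 CPM in F4 and 17.2 and 16.8 CPM in A12 in DMSO. In WT clones it was at 127 CPM in A7 and 332 CPM in C4 after Aza, against 66.8 CPM in A7 and 288 CPM in C4 in DMSO. The log2 differences of 1.40 ± 0.78 in KO and 0.44 ± 0.67 in WT (SE) were not called (adjusted p = 0.251 and 0.725, edgeR). The KO difference was 0.31 without A12 and 1.87 without F4, and the WT difference was 0.20 without A7 and 0.92 without C4. With the WT labels exchanged the KO value passed narrowly (adjusted p = 0.0417).

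**Figure D2:**
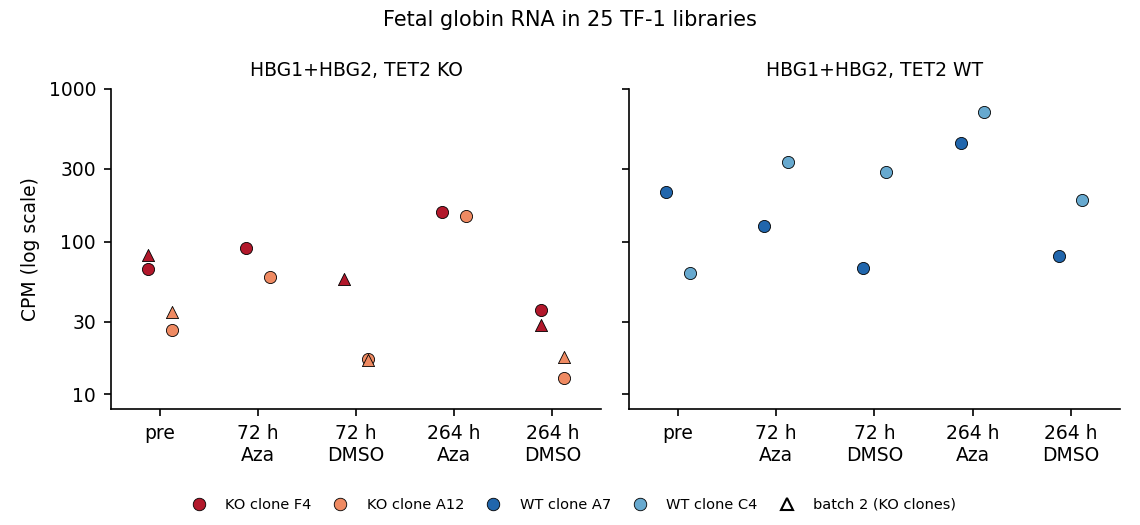
Summed HBG1 and HBG2 RNA in CPM (log axis) by condition for KO clones (left) and WT clones (right); points are libraries and triangles the second batch. At 264 h both Aza libraries lie above all DMSO libraries of their genotype, and the pre-treatment WT libraries of A7 and C4 stand in the opposite order to later ones.

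At 72 h the regulators called with Aza changed by at most 0.42 in size on the log2 scale, apart from 1 at trace level. In KO, 3 of 10 members were called, MYB and HIC2 higher and NFIA lower, where 20.1% of all tested genes were called. In WT, 4 of 10 were called, MYB, HIC2 and IGF2BP1 higher and NFIA lower, where 18.3% of genes were called. The members' median log2 difference was 0.02 in KO and 0.06 in WT, beside 0.01 and 0.00 over all genes.

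MYB, which sustains progenitor growth and favours BCL11A expression, stood at 395 CPM in F4 and 444 CPM in A12 after Aza, against 281 CPM in F4 and 358 and 320 CPM in A12 in DMSO. In WT it stood at 384 CPM in A7 and 342 CPM in C4 after Aza, against 308 and 272 CPM in DMSO. Aza libraries lay above all DMSO libraries of their genotype. The share of all genes that separate with Aza was not counted. A lack of overlap is therefore a description, for MYB and for HIC2 and NFIA below. MYB rose by a log2 difference of 0.33 ± 0.07 in KO and 0.32 ± 0.07 in WT (SE; adjusted p = 0.00209 and 0.00186, edgeR). HIC2 was at 28.6 CPM in F4 and 27.9 CPM in A12 after Aza, against 25.2 CPM in F4 and 20.7 and 21.6 CPM in A12 in DMSO. In WT, HIC2 was at 26.7 CPM in A7 and 30.9 CPM in C4 after Aza, against 23.8 and 24.0 CPM in DMSO. It rose by 0.39 ± 0.09 in KO and 0.27 ± 0.09 in WT on the log2 scale (adjusted p = 0.00388 and 0.0363, edgeR), without overlap of the groups. In WT it passed under 5 of 14 alternative settings, and without C4 its adjusted p was 0.505.

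NFIA, a nuclear factor I protein that promotes erythroid fate, was the member that fell. It stood at 75.9 CPM in F4 and 49.7 CPM in A12 after Aza, against 71.8 CPM in F4 and 69.4 and 53.3 CPM in A12 in DMSO. The KO groups overlap in these raw levels, and the call rests on the clone and batch terms. In WT it stood at 60.0 CPM in A7 and 59.0 CPM in C4 after Aza, against 71.4 and 75.0 CPM in DMSO, with no overlap. The log2 differences were -0.42 ± 0.07 in KO and -0.30 ± 0.07 in WT (SE; adjusted p = 0.000154 and 0.00281, edgeR). Without a replicate block for clone it was not called in either genotype (adjusted p = 0.524 and 0.496).

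IGF2BP1, an RNA-binding protein of fetal cells, was called higher in WT from very few reads: 12 counts in A7 and 19 in C4 after Aza, against 4 and 5 in DMSO. The log2 difference of 1.86 ± 0.62 (adjusted p = 0.0414, edgeR) was lost when any 1 of 3 clones was left out, F4, A12 or C4 (adjusted p = 0.226, 0.225 and 0.1998). C4 held 19 counts after Aza and 20 in DMSO at 264 h, so its Aza level at 72 h lies within its own later DMSO level. BCL11A, ZBTB7A, IGF2BP3, NFIX, SOX6 and LIN28B were called in neither genotype at 72 h. For BCL11A the log2 difference was -0.04 (95% interval -0.41 to 0.33) in KO and -0.14 (-0.46 to 0.19) in WT. Leaving out a clone moved these counts: in KO 0 members passed without A12, and in WT 2 passed without F4, 1 without A12 and 1 without C4.

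**Figure D3:**
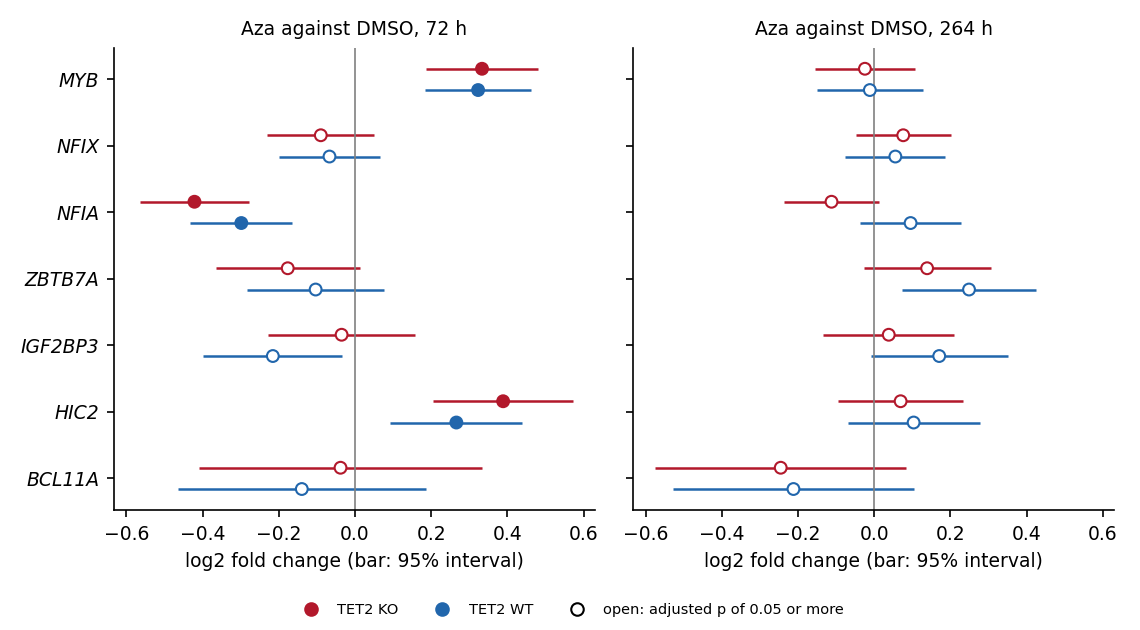
Log2 difference of Aza against DMSO for 7 regulators at 72 h (left) and 264 h (right), KO in red above WT in blue, with 95% intervals; filled points have an adjusted p under 0.05. MYB, NFIA and HIC2 are filled at 72 h in both genotypes, and no point is filled at 264 h; LIN28B, IGF2BP1 and SOX6 are left out for their low counts.

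At 264 h, when fetal globin RNA stood highest, none of the 10 regulators was called in KO, where 0.0924% of genes were called, and none in WT, where 0.5% were. At an unadjusted p under 0.05, 0 of 10 passed in KO and 1 of 10 in WT, beside 1189 and 1469 of 18391 genes. DESeq2 called none in either genotype. MYB was at 323 CPM in F4 and 363 CPM in A12 after Aza, against 306 to 368 CPM in the 4 DMSO libraries. BCL11A was at 5.11 CPM in F4 and 3.43 CPM in A12 after Aza, against 4.90 to 7.08 CPM in DMSO, and in WT at 7.15 CPM in A7 and 8.78 CPM in C4 after Aza, against 8.39 and 10.0 CPM in DMSO. Its log2 difference was -0.25 (95% interval -0.58 to 0.08) in KO and -0.21 (-0.53 to 0.11) in WT. ZBTB7A, the other main promoter-binding repressor, differed by 0.14 (-0.03 to 0.31) in KO and 0.25 (0.07 to 0.43) in WT, where the adjusted p was 0.366. These intervals take the fitted error as normal and cover that error only, and a p that misses the threshold does not show that levels were equal.

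The difference between genotypes in the response to Aza was tested directly. No member was called at 72 h or at 264 h, and 0.0% of all genes were called at either time (edgeR; 631 and 569 genes had an unadjusted p under 0.05, of which 0 and 1 were members). For HBG1 plus HBG2 the KO response minus the WT response was 0.96 ± 1.03 at 72 h and 0.76 ± 0.94 at 264 h on the log2 scale (SE; adjusted p = 1.00 for both).

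Between the harvests after Aza, MYB was lower and NFIA and ZBTB7A were higher at 264 h. In KO, 3 of 10 members were called at 264 h against 72 h, where 20.5% of genes were, and in WT 5 of 10, where 20.4% were. NFIA was higher at 264 h by 0.35 ± 0.07 in KO and 0.54 ± 0.07 in WT, and MYB was lower by a log2 difference of -0.29 ± 0.07 in KO and -0.34 ± 0.07 in WT (SE; adjusted p at most 0.00415, edgeR). ZBTB7A was at 37.8 CPM in F4 and 39.2 CPM in A12 at 264 h, against 25.7 and 29.1 CPM at 72 h, and in WT at 42.7 CPM in A7 and 39.4 CPM in C4, against 30.2 and 29.7 CPM. It rose by 0.49 ± 0.09 in KO and 0.45 ± 0.09 in WT, with no overlap, though the share of genes that separate so was not counted. IGF2BP3 and NFIX were called higher in WT, by 0.47 ± 0.09 and 0.27 ± 0.07. Without A12, 1 of 10 passed in KO, ZBTB7A.

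Some of these genes also moved in culture with DMSO alone. At 72 h in DMSO against pre-treatment, 3 of 10 were called in KO, where 11.3% of genes were, and 3 of 10 in WT, where 13.6% were. ZBTB7A, IGF2BP3 and NFIX were the members called in both genotypes, all lower at 72 h. ZBTB7A differed by -0.35 ± 0.09 in KO and -0.30 ± 0.09 in WT, and NFIX by -0.23 ± 0.07 and -0.37 ± 0.07. The count in KO was 5 with the pre-treatment WT labels exchanged or those libraries left out, with BCL11A and NFIA added, and 0 within the first batch alone. It was 0 without F4 or without A12 and 5 without A7 or without C4, and the WT count was 1 without A7. Between 264 h and 72 h in DMSO no member was called in KO, where 4.68% of genes were, or in WT, where 0.00544% were. At an unadjusted p under 0.05, 5 of 10 passed in KO and 2 of 10 in WT, beside 3632 and 1510 of 18391 genes. DESeq2 called 1 of 10 in KO, IGF2BP1, and none in WT. With the pre-treatment WT labels exchanged, those libraries left out, or A7 or C4 left out, 2 of 10 passed in KO, BCL11A and IGF2BP1.

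BCL11A levels lay below those of the WT clones in the KO clones of the first batch in every condition, without passing the test over all genes. It stood at 5.57 CPM in F4 and 5.43 CPM in A12 before treatment, against 9.21 CPM in A7 and 9.34 CPM in C4. At 72 h after Aza it was at 3.23 and 4.00 CPM in F4 and A12, against 6.82 and 6.66 CPM in A7 and C4. Over all libraries the range was 3.23 to 7.08 CPM in 15 KO libraries (median 5.01) and 6.66 to 10.0 CPM in 10 WT libraries (median 8.29), and the overlap comes from the second batch. In batch 1 the KO libraries lay below the WT libraries of the same condition in 5 of 5 conditions, which held for 4.36% of tested genes, and every KO library lay below every WT library, which held for 0.924%. DMSO at 72 h rests there on 1 KO library, A12 at 3.74 CPM, and all 5 conditions are drawn from the same 4 clones. The log2 difference of KO against WT was -0.74 ± 0.18 before treatment, -0.88 ± 0.17 in DMSO at 264 h, -0.90 ± 0.21 at 72 h and -0.89 ± 0.25 at 264 h after Aza (SE).

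BCL11A spans chr2:60678302-60780702 (hg19, - strand), and none of these differences passed over all genes with 2 clones a side (adjusted p = 0.219, 0.132, 0.187 and 0.259, edgeR). Of the 9 members that passed the filter on low counts, LIN28B being the exception, 0 were called in each of these comparisons. Called shares over all genes were 0.0543% before treatment, 0.208% in DMSO at 264 h, 0.19% at 72 h and 0.0488% at 264 h after Aza. At an unadjusted p under 0.05, 1, 2, 1 and 2 members passed, beside 1321, 1828, 1566 and 1910 of all genes. The genes tested numbered 16560, 16333, 16322 and 16380. DESeq2 called 1 member in DMSO at 264 h, BCL11A, and none in the other conditions. Without F4 the KO side was A12 alone, assumed to vary like the WT pair, and 2, 1, 2 and 2 members had an adjusted p under 0.05. LIN28B was among them each time and entered the fit only through A12, so these counts describe that clone and do not test the genotype. MYB ran the other way: its KO libraries lay above the WT libraries of the same condition in 5 of 5, which held for 5.02% of genes, with log2 differences of 0.20 to 0.28 that were not called (adjusted p = 0.357 to 0.683). Here too, DMSO at 72 h holds A12 alone on the KO side.

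**Figure D4:**
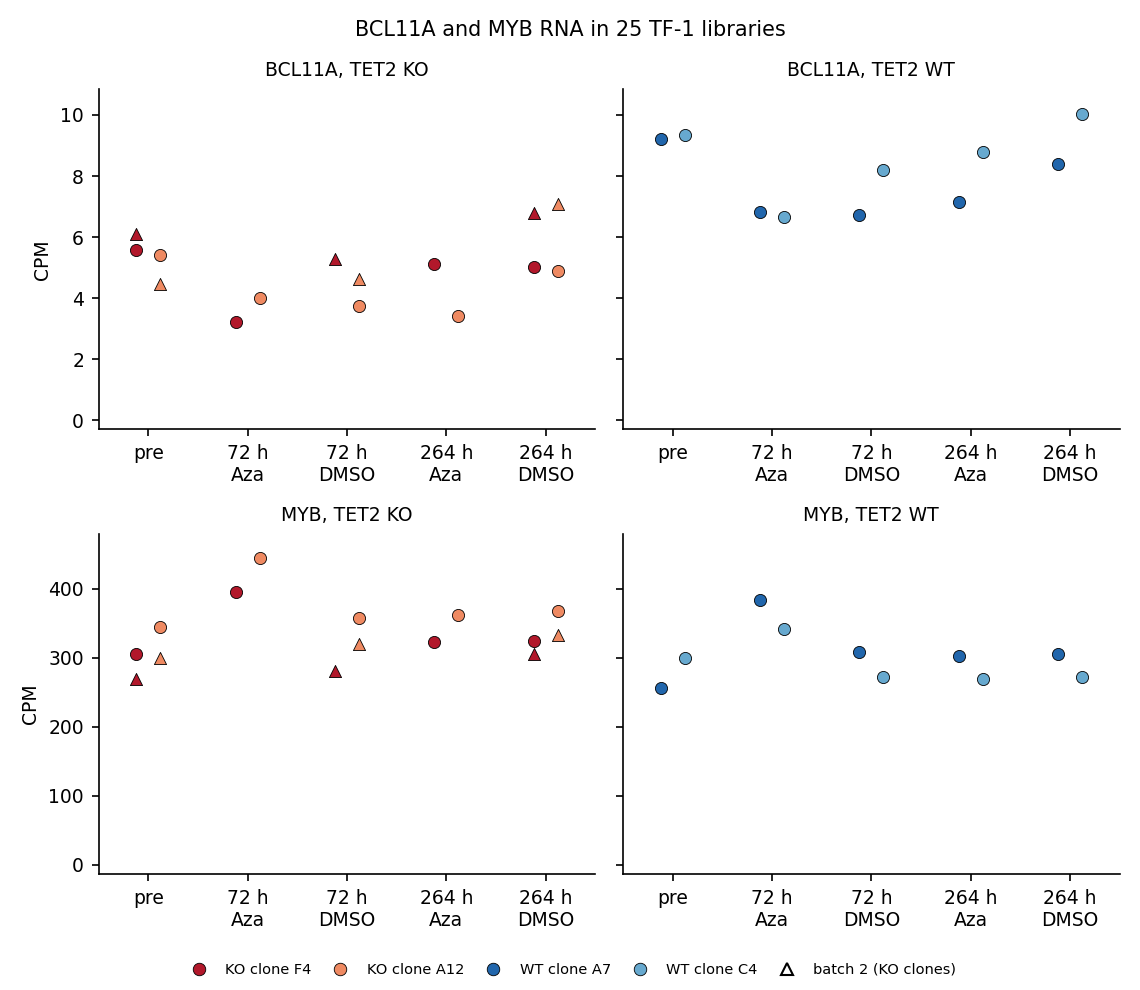
BCL11A (top) and MYB (bottom) RNA in CPM by condition for KO clones (left) and WT clones (right), axes from 0; points are libraries and triangles the second batch. Circles of BCL11A lie between 3.23 and 5.57 CPM in KO and between 6.66 and 10.0 CPM in WT, and MYB is highest at 72 h after Aza in both.

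Fetal globin RNA had a lower median in KO than in WT libraries, with overlap. Before treatment F4, at 66.1 CPM, lay above the library labelled C4, at 62.0 CPM. HBG1 plus HBG2 ran from 12.9 to 157 CPM in KO libraries (median 35.9) and from 62.0 to 704 CPM in WT libraries (median 199.9), with log2 differences of KO against WT of -1.56 ± 0.97 before treatment, -2.44 ± 0.77 in DMSO at 264 h, -1.63 ± 0.61 at 72 h and -1.91 ± 0.22 at 264 h after Aza (SE). None was called (adjusted p = 0.0809 to 0.847, edgeR); DESeq2 called the last (adjusted p = 3.88e-18). In edgeR its adjusted p was 0.00528 without A7 and 0.0174 without C4, where the 1 WT library left was assumed to vary like the KO pair. With 1 clone left out in turn, the differences ran from -2.36 to -0.42 before treatment, from -3.37 to -1.72 in DMSO at 264 h and from -2.16 to -0.77 at 72 h after Aza. The summed level of erythroid markers was 153 to 425 CPM in KO clones and 366 to 944 CPM in WT clones, with overlap. The part of these markers in the result was not tested. In bulk RNA, fewer cells that express a gene and less RNA per cell cannot be told apart.

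LIN28B and IGF2BP1, RNA-binding proteins of fetal cells, were high in 1 clone only, among the 4 sampled. IGF2BP3, a member of the IGF2BP family too, did not share this pattern. It was at 30.5 to 40.9 CPM in A12 and 24.7 to 46.9 CPM in the other clones. LIN28B was at 1.10 to 2.65 CPM in the 8 libraries of A12 (31 to 74 counts each, 421 in all), against 0 to 0.159 CPM in the 17 libraries of F4, A7 and C4 (0 to 4 counts each, 10 in all). IGF2BP1 was at 9.06 to 16.6 CPM in A12, against 0.105 to 0.753 CPM in the other clones. Libraries of those clones held 3 to 20 counts each, with up to 20 in C4, so some lay above the floor. The lowest A12 library exceeded the highest of the others 6.95-fold for LIN28B and 12.0-fold for IGF2BP1, with or without Aza. This pattern was chosen after its values were seen, and it is given without a test. A gap of at least 2-fold of this kind was found for 57 genes, 0.31% of those tested, and 2 of them are members. LIN28B passed the filter on low counts only through A12, the clone where it is high. The share is therefore a description and does not measure how unusual 2 members are. F4, the other KO clone, lay with the WT clones, so the 2 KO clones did not share the pattern. Whether the knockout had a part in A12 was not tested.

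**Figure D5:**
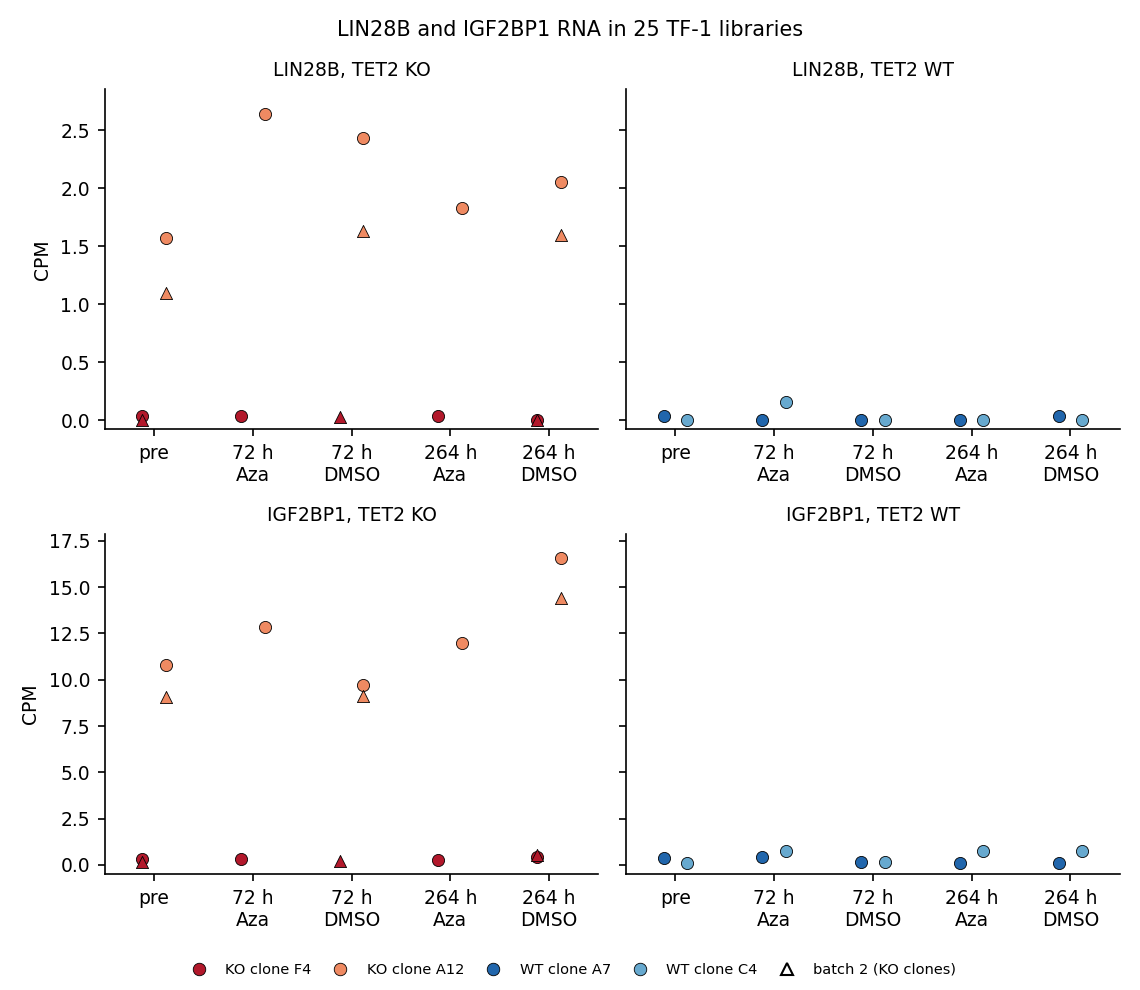
LIN28B (top) and IGF2BP1 (bottom) RNA in CPM by condition for KO clones (left) and WT clones (right); points are libraries and triangles the second batch. A12 lies at 1.10 to 2.65 CPM for LIN28B and 9.06 to 16.6 CPM for IGF2BP1, and every other clone lies near 0.

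A12 was also the clone with the least fetal globin RNA in DMSO. HBG1 plus HBG2 stood at 12.9 to 17.6 CPM in its DMSO libraries at 264 h, against 28.6 and 35.9 CPM in F4, 81.0 CPM in A7 and 187 CPM in C4. After Aza at 264 h it came close to F4, at 148 against 157 CPM, while LIN28B and IGF2BP1 in A12 were at 1.83 and 12.0 CPM after Aza, against 2.06 and 1.598 CPM and 16.6 and 14.4 CPM in DMSO. Aza did not bring LIN28B to the A12 level in any other clone: the highest count there after Aza was 4, in C4 at 72 h.

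The LIN28B promoter is shown because Aza acts through CpG methylation, which these data do not measure, and because the gene stayed near 0 in the other clones after Aza. In the 300 bases around the upstream start that RefSeq lists (chr6:104940715-104941014, GRCh38.p14, + strand), 37 CpG, in capitals, were counted. As many or more were found in 11.3% of 35116 promoters, whose median was 14. The downstream start held 8. High counts were not particular to LIN28B among the members matched. Their start with the most CpG held 46 in NFIX, 41 in NFIA, 39 in ZBTB7A and 35 in both MYB and HIC2. It held 27 in BCL11A, 22 in SOX6 and 17 in IGF2BP3. Any link between CpG count and RNA level was not tested.
LIN28B upstream promoter: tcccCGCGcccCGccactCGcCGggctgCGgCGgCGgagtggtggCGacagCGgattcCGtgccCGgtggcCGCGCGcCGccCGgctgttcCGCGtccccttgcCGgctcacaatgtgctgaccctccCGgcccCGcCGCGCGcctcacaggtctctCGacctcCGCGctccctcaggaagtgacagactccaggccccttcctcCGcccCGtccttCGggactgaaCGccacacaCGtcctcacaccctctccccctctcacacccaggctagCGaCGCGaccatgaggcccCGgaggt

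Of 11 genes of the let-7 pathway tested at 72 h, 1 was called higher and 4 lower in KO, and 0 higher and 3 lower in WT, beside 20.1% of all genes called in KO and 18.3% in WT. The list's median log2 difference was -0.14 in KO and -0.06 in WT, beside 0.01 and 0.00 over all genes. MIRLET7BHG, the host transcript of let-7b, stood at 1.84 ± 0.180 CPM after Aza (SD, n = 2) and 4.34 ± 1.47 CPM in DMSO (n = 3) in KO, and fell by a log2 difference of -1.47 ± 0.31 (SE; adjusted p = 0.00150, edgeR). MIR99AHG, the host of let-7c, fell by -1.01 ± 0.31 in KO and -1.12 ± 0.31 in WT (adjusted p = 0.0205 and 0.0135). DIS3L2, the exonuclease that degrades tailed let-7 precursors, fell by -0.64 ± 0.11 in WT. Mature microRNAs were not analysed here. At 264 h none of the 11 was called in either genotype.

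BCL11A and ZBTB7A repress through NuRD and other cofactors. Of 14 NuRD and methyl-binding genes, 0 rose and 4 fell in KO at 72 h, and 0 rose and 3 fell in WT, where 20.1% and 18.3% of all genes were called, so that the WT count is close to the background. MTA1, a NuRD subunit, fell by -0.51 ± 0.07 in KO and -0.49 ± 0.07 in WT, and the histone deacetylase HDAC1 by -0.24 ± 0.07 in KO. Among 16 other cofactors tested, 6 rose and 3 fell in KO, and 5 rose and 2 fell in WT, against the same background. EHMT1, a histone H3 lysine methyltransferase, stood at 26.6 ± 1.51 CPM after Aza and 68.8 ± 3.76 CPM in DMSO in KO (SD, n = 2 and 3), and at 27.4 ± 2.11 CPM and 70.1 ± 2.62 CPM in WT (n = 2 each). It fell by -1.30 ± 0.08 in KO and -1.35 ± 0.07 in WT on the log2 scale (SE). NCOR1, a corepressor, fell by -0.58 ± 0.07 and -0.45 ± 0.06. At 264 h no gene of these lists was called in either genotype.

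Of 15 activators of the beta-like globin genes tested, 10 were called higher and 1 lower in KO at 72 h, and 9 higher and 1 lower in WT, with median log2 differences of 0.48 and 0.33. The counts in this paragraph stand beside 20.1% of all genes called in KO and 18.3% in WT at 72 h. At 264 h these shares were 0.0924% and 0.5%. KLF1, the erythroid factor that drives adult beta-globin and BCL11A, stood at 157 ± 15.2 CPM after Aza and 83.8 ± 27.7 CPM in DMSO in KO (SD, n = 2 and 3) and rose by 1.30 ± 0.17 (SE; adjusted p = 0.000137, edgeR). At 264 h, 0 of 15 were called in KO and 1 in WT. Of the 3 other beta-like globins, 2 were called higher at 264 h in KO and 3 in WT. HBE1, the embryonic gene, rose by 4.11 ± 0.41 in KO and 2.52 ± 0.36 in WT, and HBD, a minor adult gene, by 1.63 ± 0.22 and 1.52 ± 0.22 (adjusted p at most 0.00208). HBB, the adult gene, rose by 1.80 ± 0.33 in WT, and its difference of 2.01 ± 0.34 in KO was not called (adjusted p = 0.0753). At 72 h, 2 of these 3 globins were called higher in KO and 1 in WT. HBE1 rose by 2.34 ± 0.52 in KO and 1.34 ± 0.40 in WT (SE; adjusted p = 0.00306 and 0.0249, edgeR). HBD rose by 0.90 ± 0.27 in KO (adjusted p = 0.0217, edgeR). Not called at 72 h were HBB in KO, at 1.06, and HBD and HBB in WT, at 0.06 and 0.29. Markers of other lineages moved with Aza at 72 h as well: 3 of 7 mast cell and basophil genes tested rose and 1 fell in KO, and 2 rose and 1 fell in WT. Of 10 erythroid markers, 7 rose in KO and 4 in WT at 72 h, and 1 and 3 at 264 h. Their part in these results was not tested.

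The remaining lists are given by their counts at 72 h, to be read against the same 20.1% and 18.3%. Of 9 paralogues of the regulators tested, 2 rose and 1 fell in KO, and 1 rose and 1 fell in WT. Of 2 neighbours of MYB, 0 were called in KO and 1 fell in WT. Of 6 genes of the DNA methylation machinery, 1 rose and 4 fell in KO, and 1 rose and 1 fell in WT. Marker genes rose for granulocytes and monocytes (2 of 5 in each genotype), megakaryocytes (2 of 6 in KO and 5 of 6 in WT) and stroma and epithelium (3 of 6 in KO and 4 of 6 in WT), with none lower. None of 3 lymphoid markers was called. Of 7 TF-1 markers, 5 rose in KO, and 4 rose and 1 fell in WT. At 264 h none of the paralogues, MYB neighbours and methylation genes was called in either genotype.

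The pattern of fetal globin RNA across libraries was most like that of C11orf21 (Pearson r = 0.951 over 25 libraries, log2 CPM centred within clone), HBBP1 (0.930), ESPN (0.916), ALAS2 (0.908) and DES (0.902). These genes were picked for the highest values, so lower values in the regulators follow from that choice and are not a finding. Centred in the same way, HIC2 had 0.388, SOX6 0.270 and BCL11A -0.384, and the other 7 lay between 0.047 and 0.171. Of 18391 genes ranked from the highest value, HIC2 stood at 1071, SOX6 at 2547 and BCL11A at 17480. The other 7 stood between 4498 and 7929. Without centring, differences between clones enter and several signs turn: BCL11A had 0.446, MYB -0.354, LIN28B -0.586 and IGF2BP1 -0.565. With the pre-treatment WT labels exchanged or those libraries left out, BCL11A had -0.458 and -0.422, HIC2 0.3996 and 0.405, and IGF2BP1 turned to -0.108 and -0.160. MYB was most like PDZD8 (0.931), LEMD3 (0.926) and ZNF695 (0.925), and NFIA most like TTC3 (0.935), VPS8 (0.911) and NIN (0.907). For HIC2 they were POLG (0.836), SIGLEC6 (0.816) and ARHGEF2 (0.809), and for IGF2BP1 KIRREL2 (0.759), WBP11 (0.745) and FAM234B (0.737). With the labels exchanged or the libraries left out, HBBP1 was most like fetal globin RNA (0.969 and 0.973), followed among the named genes by C11orf21 (0.927 and 0.940), and the values for the genes named for IGF2BP1 fell to between 0.614 and 0.704. All these values are descriptions, since the libraries share 4 clones, their depth and their treatments.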

How the data were processed

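Per the file headers, the authors deposited whole-number read counts per gene, made with featureCounts 1.6.2 over exons of GENCODE release 19 and with no strand option set, so overlapping and antisense genes cannot be told apart although the labels name a stranded kit. The notes of the submitters on processing also name STAR 2.6.1d and the build hg19. From the counts, CPM with TMM sizes and edgeR 4.0.16 quasi-likelihood tests (robust, filterByExpr, R 4.3.3) were computed here. A shared model of 25 libraries with group, clone and batch terms tested 18391 genes, and KO against WT was fitted on the first batch of each condition. Adjusted p-values are Benjamini-Hochberg values over all genes tested. HBG1 and HBG2 were also summed into 1 added feature. Clone names pair libraries of the same cells, which correlated at 0.377 to 0.576 in KO. Nothing states that libraries of a clone are separate cultures, so p-values measure the spread between these libraries. Intervals and floors cover counting or fitted error only. Members and the 16 other lists were chosen with earlier results of these data known, and so was the rule for named genes: all members, list genes called with Aza at an absolute log2 difference of at least 1 (at most 4 a list), the 2 largest called changes of the NuRD, cofactor and let-7 lists, and the genes most alike in pattern. Of 157 list memberships 154 matched the table. The model was tested on simulated data with a common spread for all genes and no clone or batch effects. That spread was smaller than the one fitted for HBG2. Estimates lay close to the changes made, but a share of the smaller changes, of 1 in size on the log2 scale, was not called. Changes below that size, like most of those of the members, were not simulated. A gene that is not called may therefore still differ. The first criterion of this test, on the share recovered, was not met. It was replaced after that run by criteria on bias, calibration and false calls. Alternatives were DESeq2 1.42.0, other filters and library sizes, terms, batches and left-out clones.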

Additional observations from a re-analysis of the deposited data

How the results depend on the processing

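Counts of regulators called were small and moved with single choices, while fetal globin differences mostly kept their sign. The limits are 2 clones a genotype, 1 F4 library replaced across batches, and counts too low for LIN28B, SOX6 and IGF2BP1. Where no cause is given below, the cause was not tested. The 0 members called with Aza at 264 h in KO stayed at 0 under all 14 alternatives. So did the 0 called in each test of difference between genotypes in the Aza response. In the main setting 0.0924% of all genes were called in the former and 0.0% in the latter. With so few genes called, these counts say little about the members. Member counts under alternative settings, here and above, are given without the share of all genes called under the same setting. A change in such a count does not tell a shift of the members from a shift of all genes.

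The replicate block is the clone term. Without a replicate block, 1 member was called with Aza in KO at 72 h and 0 in WT, 1 in KO and 3 in WT between 264 h and 72 h after Aza, and 0 in KO and 1 in WT between DMSO at 72 h and pre-treatment, where HBG1 plus HBG2 differed by 0.37 in WT. With all 25 libraries and no replicate block, KO against WT called 1 member, BCL11A, in DMSO at 264 h and at both times after Aza.

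Without a filter on low counts, 38911 genes were fitted, and the median prior degrees of freedom were infinite, against 13.0 with the filter, so a gene's own spread did not enter. HBG1 plus HBG2 then did not pass for KO against WT or for DMSO against pre-treatment in WT, and passed in the other comparisons, at 1.39 in KO and 0.43 in WT for Aza at 72 h, 2.92 and 2.15 at 264 h, 0.97 and 0.76 for the difference between genotypes at 72 h and 264 h, 1.14 and 1.43 for 264 h against 72 h after Aza, -0.61 for DMSO against pre-treatment in KO, and -0.39 and -0.30 for DMSO at 264 h against 72 h. Members called were 2 for DMSO at 264 h against 72 h in KO, and for KO against WT 1 before treatment, 2 in DMSO at 264 h, 1 after Aza at 72 h and 2 at 264 h. A mean CPM of at least 1 gave 5 members for DMSO against pre-treatment in KO, and unscaled library sizes gave 5 for 264 h against 72 h after Aza in KO.

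With DESeq2, HBG1 plus HBG2 passed for Aza in KO at 264 h at 2.95 and for KO against WT after Aza at 264 h at -1.90, and 1 member was called for DMSO at 264 h against 72 h in KO and for KO against WT in DMSO at 264 h. With the failed library included, 0 members were called for Aza in WT at 72 h, 3 between 264 h and 72 h after Aza in WT and 0 for DMSO against pre-treatment in WT, and HBG1 plus HBG2 reversed to 0.11 in KO. With the first batch only, 0 members were called for DMSO against pre-treatment in KO.

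With only the groups compared in the fit, 1 member passed with Aza in WT at 264 h, ZBTB7A, 0 in KO and 0 in WT for DMSO against pre-treatment, and 2 in KO for DMSO at 264 h against 72 h. HBG1 plus HBG2 was then 1.07 in KO and 1.44 in WT for 264 h against 72 h after Aza, and -0.51 in KO and 0.28 in WT for DMSO against pre-treatment. Exchanging the pre-treatment WT labels gave 1.38 in KO at 72 h and 2.91 in KO and 2.22 in WT at 264 h for Aza, 1.49 for 264 h against 72 h after Aza in WT, and 0.31 for DMSO against pre-treatment in WT. Leaving them out gave 2.91, 2.22 and 1.48 for the values at 264 h in KO, in WT, and for 264 h against 72 h in WT. Under both, 5 members passed for DMSO against pre-treatment in KO and 2 for DMSO at 264 h against 72 h in KO.

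With each clone left out in turn, a lone library in a group is assumed to vary like the others. Members called ranged from 0 to 3 in KO and 1 to 3 in WT for Aza at 72 h, 1 to 4 in KO between 264 h and 72 h after Aza, 0 to 5 in KO and 1 to 3 in WT for DMSO against pre-treatment, 0 to 2 in KO for DMSO at 264 h against 72 h, and 0 to 2, 0 to 1, 0 to 2 and 0 to 2 for KO against WT before treatment, in DMSO at 264 h and after Aza at 72 h and 264 h. HBG1 plus HBG2 ranged from 0.31 to 1.87 in KO and 0.20 to 0.92 in WT for Aza at 72 h, 2.14 to 3.38 for Aza in KO at 264 h, -0.13 to 1.43 and -0.035 to 1.23 for the difference between genotypes at 72 h and 264 h (lowest without A12), -0.73 to 0.13 in KO (highest without A12) and -1.65 to 2.21 in WT (highest without A7) for DMSO against pre-treatment, -0.62 to 0.28 in WT for DMSO at 264 h against 72 h (highest without C4), and -2.36 to -0.42, -3.37 to -1.72, -2.16 to -0.77 and -2.19 to -1.53 for KO against WT before treatment, in DMSO at 264 h and after Aza at 72 h and 264 h.

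The correlations with HBG1 plus HBG2 were recomputed in ways chosen after seeing the data. Without centring within clone, BCL11A turned to 0.446, ZBTB7A to -0.039, MYB to -0.354, LIN28B to -0.586 and IGF2BP1 to -0.565. IGF2BP1 turned to -0.108 with the pre-treatment WT labels exchanged and to -0.160 with those libraries left out.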

Other observations

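The library labelled as failing quality control, F4 in DMSO at 72 h, was set beside the 25 other libraries in CPM without TMM factors. IGF2BP3 was at 6.37 in it, against 24.5 to 47.2 in the others. HIC2 was at 14.1 against 20.6 to 30.7, ZBTB7A at 22.1 against 25.1 to 43.5, and NFIX at 39.6 against 46.4 to 72.3. MYB at 259 and NFIA at 65.4 lay within the range of the others, which was 258 to 440 for MYB and 49.3 to 102 for NFIA.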
